A study of Homo sapiens with 15 samples.

Results

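The aldehyde dehydrogenases described here are 10 listed genes: ALDH1A1, ALDH1A2, ALDH1A3, ALDH1B1, ALDH2, ALDH3A2, ALDH4A1, ALDH7A1, ALDH9A1 and ALDH18A1. They were taken by gene symbol from both deposited tables of RNA-seq values of K562, a BCR-ABL1+ chronic myeloid leukemia line. The knockout table lists 8 of the 10 among its 17769 genes, and 7 were abundant enough to be tested. The resistance table lists all 10 among 60510 genes, and 8 were tested.

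The knockout table holds 3 replicates each of the empty vector control (EV, genotype WT), HSP90 alpha KO (HSP90α-KO) and HSP90 beta KO (HSP90β-KO), all with treatment none. The resistance table holds 3 replicates each of cells under DMSO longterm (parental) and PUH71 longterm (PUHr), both labelled genotype WT, where PUH71 is the HSP90 inhibitor PU-H71. WT is the sample label only, as the paper reports that PUHr cells acquired a missense variant and a copy number gain of the HSP90α gene. The knockout cells received Cas9 and a guide by lentivirus, were sorted by fluorescence and grown from single cells, and the resistant cells were clones picked after long culture with rising drug, while parental cells grew alongside in DMSO. Clone and condition therefore cannot be told apart. The labels do not say whether replicates were separate cultures, although the paper speaks of independent replicates, so the p-values measure the spread between these libraries and that spread may be technical. Between 19594381 and 26216730 reads per library fell on genes: 20910153, 20589103 and 26216730 in EV replicates 1 to 3, 21112564, 19594381 and 19994573 in HSP90α-KO, and 20495247, 22953509 and 24701713 in HSP90β-KO. The parental replicates held 24260641, 24364722 and 21584840 reads, and the PUHr replicates 24477692, 23538434 and 21847942.

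Aldehyde dehydrogenases use NAD+ or NADP+ to oxidise reactive aldehydes to acids. ALDH1A1, ALDH1A2 and ALDH1A3 turn retinaldehyde into retinoic acid, and the activity of ALDH1A1 is widely used to mark blood stem and progenitor cells. ALDH2 and ALDH1B1 clear acetaldehyde and related aldehydes in mitochondria, ALDH3A2 oxidises fatty aldehydes, ALDH7A1 acts in lysine breakdown and ALDH9A1 in carnitine synthesis. ALDH4A1 carries out the last step of proline breakdown to glutamate, and ALDH18A1 runs the first steps from glutamate towards proline.

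Levels are given on the counts-per-million scale (CPM), the reads on a gene scaled to the size of its library. The tables were normalized separately, so a level in one is set beside a level in the other without a test. The targeted genes checked the labels first. HSP90AA1, the gene of HSP90α, stood at 716, 683 and 713 CPM in EV replicates 1 to 3, at 92.6, 88.0 and 90.8 CPM in HSP90α-KO, and at 1218, 1190.4 and 1209.8 CPM in HSP90β-KO. HSP90AB1, the gene of HSP90β, stood at 2823, 2782 and 2812 CPM in EV, at 3267, 3309.8 and 3344 CPM in HSP90α-KO, and at 1939, 1909 and 1889 CPM in HSP90β-KO. Each targeted transcript was thus lowest in all 3 libraries of its own knockout. In the resistance table HSP90AA1 stood at 1721, 1719.8 and 1696 CPM in parental and 1559, 1592 and 1553 CPM in PUHr, while HSP90AB1 stood at 4578, 4497 and 4517 CPM in parental and 3953, 3759.7 and 3828 CPM in PUHr. Their log2 fold changes were -0.13 (limma adjusted p = 4.7e-05) and -0.24 (adjusted p = 1.9e-07). No gene was targeted in these cells, so the values check no label there. The paper reports raised HSP90α protein in PUHr cells, which transcript levels do not measure.

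Most markers of K562 cells were present in every library. Of the 11 genes on that list, 10 were listed in the knockout table and lay above 3 reads in every library, with a summed level of 1241 to 1328 CPM, and TFRC was the most abundant. In the resistance table all 11 were listed and 10 lay above 3 reads in every library, the other being HBE1 with 1 to 4 reads in parental and 0 to 1 in PUHr, and the sum was 3010 to 3057 CPM in parental and 2377 to 2412 CPM in PUHr. The 3 T cell markers summed to 7.61 to 8.43 CPM in EV, 3.66 to 4.56 CPM in HSP90α-KO and 15.2 to 17.3 CPM in HSP90β-KO, mostly from CD3D, and CD2 was not listed. They summed to 9.10 to 9.47 CPM in parental and 7.28 to 7.83 CPM in PUHr, where CD2 had at most 1 read per library. The 3 monocyte markers were not listed in the knockout table and held at most 15 reads per library in the resistance table. Fibroblast markers summed to at most 2.83 CPM in the knockout table, to 9.10 to 9.51 CPM in parental, led by COL1A2, and to 5.06 to 5.65 CPM in PUHr, led by COL1A1. Hepatocyte markers, led by ALB where they were highest, reached at most 2.82 CPM. The part of these transcripts in the results on aldehyde dehydrogenases was not tested.

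ALDH1A1 (ENSG00000165092) spans 72900671 to 73080442 of chromosome 9 in GRCh38, minus strand, and ALDH3A2 (ENSG00000072210) spans 19648136 to 19685760 of chromosome 17, plus strand. They were the only members that rose by more than 1 on the log2 scale in resistant cells (adjusted p under 0.05). The 250 bases before the start of each are printed so that the sequences of this pair can be seen side by side. The ALDH1A1 window is chr9:72953054-72953303 on the minus strand and the ALDH3A2 window chr17:19647886-19648135 on the plus strand, both from 5′ to 3′ as RefSeq gives them for GRCh38.p14.
ALDH1A1: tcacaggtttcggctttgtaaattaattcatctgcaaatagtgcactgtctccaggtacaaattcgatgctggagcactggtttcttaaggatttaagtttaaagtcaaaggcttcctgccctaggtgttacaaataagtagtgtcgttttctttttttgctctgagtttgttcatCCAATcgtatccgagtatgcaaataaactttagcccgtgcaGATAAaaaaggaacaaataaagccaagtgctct
ALDH3A2: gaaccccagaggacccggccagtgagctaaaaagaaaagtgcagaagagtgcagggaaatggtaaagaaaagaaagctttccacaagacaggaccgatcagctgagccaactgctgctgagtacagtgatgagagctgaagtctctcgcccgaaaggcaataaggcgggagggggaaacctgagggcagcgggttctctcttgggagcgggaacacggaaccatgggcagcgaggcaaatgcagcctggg
Capitals mark matches to the motifs searched on both strands, which were the TATA box letters TATAAA, the CCAAT box, the GATA factor letters GATAA, and GAANNTTC and TTCNNGAA, a pair of palindromes from the heat shock element. The ALDH1A1 window held 1 CCAAT, from 74 to 70 bases before the start, and 1 GATAA, from 33 to 29 bases before it, both on the strand of the gene. The ALDH3A2 window held none of the 5 motifs. Of 27305 promoter windows of the same length, 33.0% held CCAAT, 21.0% GATAA, 11.1% TATAAA, 5.85% GAANNTTC and 6.72% TTCNNGAA. G and C made up 38.4% of the ALDH1A1 window and 55.6% of the ALDH3A2 window, beside a median of 58% over all windows. Annotated transcripts of ALDH1A1 with an earlier start span its window, of which 3 bases are exonic. Windows were found for 9 of the 10 members, all except ALDH2. Those of ALDH1A2 and ALDH4A1 reach into annotated exons and are not printed.

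**Figure D1:**
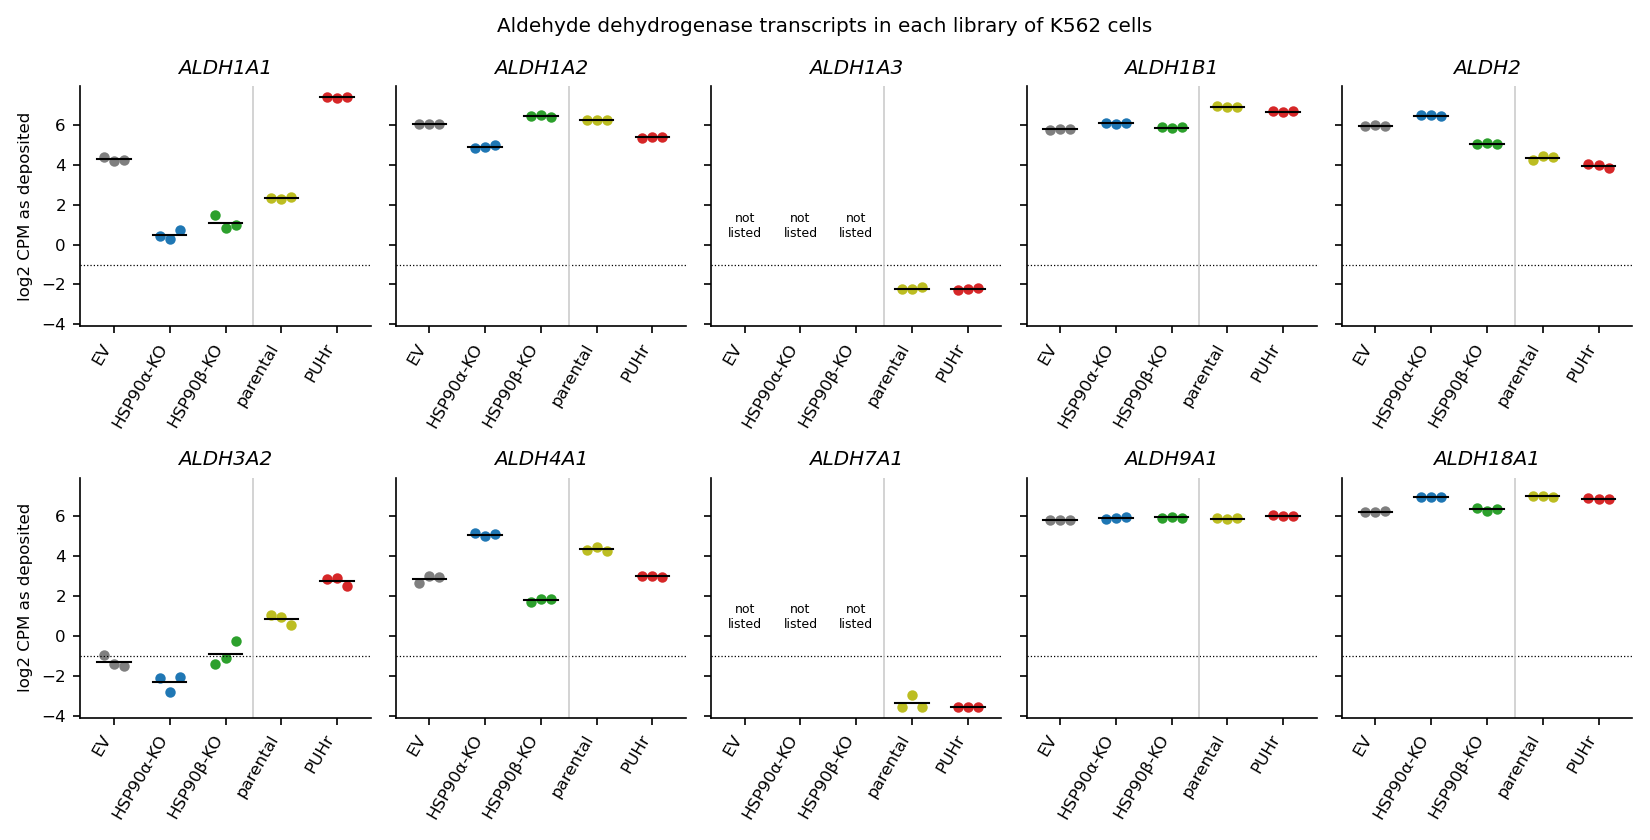
Deposited log2 CPM (vertical axis) of the 10 members in each of the 15 libraries, by group (horizontal axis), with points for replicates, black lines for group means, a dotted line at the filter value of -1 and a grey line between the separately normalized tables. ALDH1A1 ran from 1.14 CPM in an HSP90α-KO library to 169 CPM in a PUHr library, while ALDH9A1 kept to between 55.4 and 67.2 CPM.

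The comparison of HSP90α-KO with EV asks which transcripts differ in cells that lost HSP90α. The retinoic acid enzymes ALDH1A1 and ALDH1A2 fell, while the proline enzymes ALDH4A1 and ALDH18A1, the mitochondrial enzymes ALDH2 and ALDH1B1, and ALDH9A1 rose. ALDH1A1 was 14.5-fold lower in HSP90α-KO, and ALDH4A1 was 4.69-fold higher. A gene was counted as passing at a Benjamini-Hochberg adjusted p under 0.05 from limma over all genes tested, and as changed when its log2 fold change was also above 1 or below -1. All 7 tested members passed, 5 higher and 2 lower, and 3 were changed, 1 higher and 2 lower. Of the 17039 genes tested, 54.2% passed, 27.5% higher and 26.6% lower, and 10.3% were changed. The median log2 fold change of the 7 members was 0.30, beside -0.01 for all tested genes. As these are bulk samples, fewer cells that express a gene and less RNA per cell cannot be told apart.

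ALDH1A1 stood at 20.7, 18.1 and 19.0 CPM in EV replicates 1 to 3 and at 1.27, 1.14 and 1.59 CPM in HSP90α-KO. Every EV library lay far above every HSP90α-KO library, where only 22 to 31 reads per library remained. The level fell from 19.3 ± 1.35 CPM to 1.33 ± 0.233 CPM (SD, n = 3), which is -3.78 as a log2 fold change (standard error, SE, 0.154, limma adjusted p = 2.9e-17). Ordered by the size of the log2 fold change, ALDH1A1 stood at place 99 of 17039 genes, and at place 31 of the 12342 whose mean log2 CPM was at least 1. With 5 CPM added before the logarithm the change was -1.94.

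ALDH1A2 (ENSG00000128918, chromosome 15, minus strand, 57953424 to 58497866), the other retinoic acid enzyme that was tested, stood at 66.0, 65.4 and 66.8 CPM in EV and at 28.2, 29.8 and 31.4 CPM in HSP90α-KO. The groups did not overlap, and ALDH1A2 kept 576 to 611 reads per knockout library. Its log2 fold change was -1.15 (SE 0.0445, limma adjusted p = 9.8e-18). ALDH1A3 (ENSG00000184254), the remaining retinoic acid enzyme, is not listed in the knockout table.

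The rises were largest for the proline enzymes. ALDH4A1 (ENSG00000159423, chromosome 1, minus strand, 18871430 to 18902724) stood at 6.18, 7.90 and 7.62 CPM in EV and at 35.7, 32.1 and 34.1 CPM in HSP90α-KO, without overlap. It rose by 2.22 on the log2 scale (SE 0.0949, limma adjusted p = 8.1e-17). ALDH18A1 (ENSG00000059573, chromosome 10, minus strand, 95605941 to 95656711) stood at 73.2, 73.7 and 75.7 CPM in EV and at 124, 126 and 126 CPM in HSP90α-KO, again without overlap. The log2 fold change of ALDH18A1 was 0.76 (SE 0.0370, limma adjusted p = 1.5e-15), so that the enzyme of proline breakdown rose past the fold threshold and the enzyme of proline synthesis rose by less.

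ALDH2 (ENSG00000111275, chromosome 12, plus strand, 111766887 to 111817532) stood at 61.1, 62.9 and 62.3 CPM in EV and at 89.2, 89.6 and 85.8 CPM in HSP90α-KO, a log2 fold change of 0.50 (SE 0.0402, limma adjusted p = 3.7e-11). Its relative ALDH1B1 (ENSG00000137124, chromosome 9, plus strand, 38392702 to 38398661) rose from 54.9 ± 1.56 to 67.8 ± 0.950 CPM (SD, n = 3), by 0.30 on the log2 scale. ALDH9A1 (ENSG00000143149, chromosome 1, minus strand, 165662216 to 165698562) moved least, from 56.2 ± 0.748 to 60.4 ± 2.15 CPM (SD, n = 3), by 0.11 (limma adjusted p = 0.030). Its call was lost in 7 alternatives, for example without HSP90α-KO replicate 3 (adjusted p = 0.12). ALDH3A2 was listed but lay under the filter, with 9, 6 and 7 reads in EV replicates 1 to 3 and 3, 1 and 3 reads in HSP90α-KO.

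**Figure D2:**
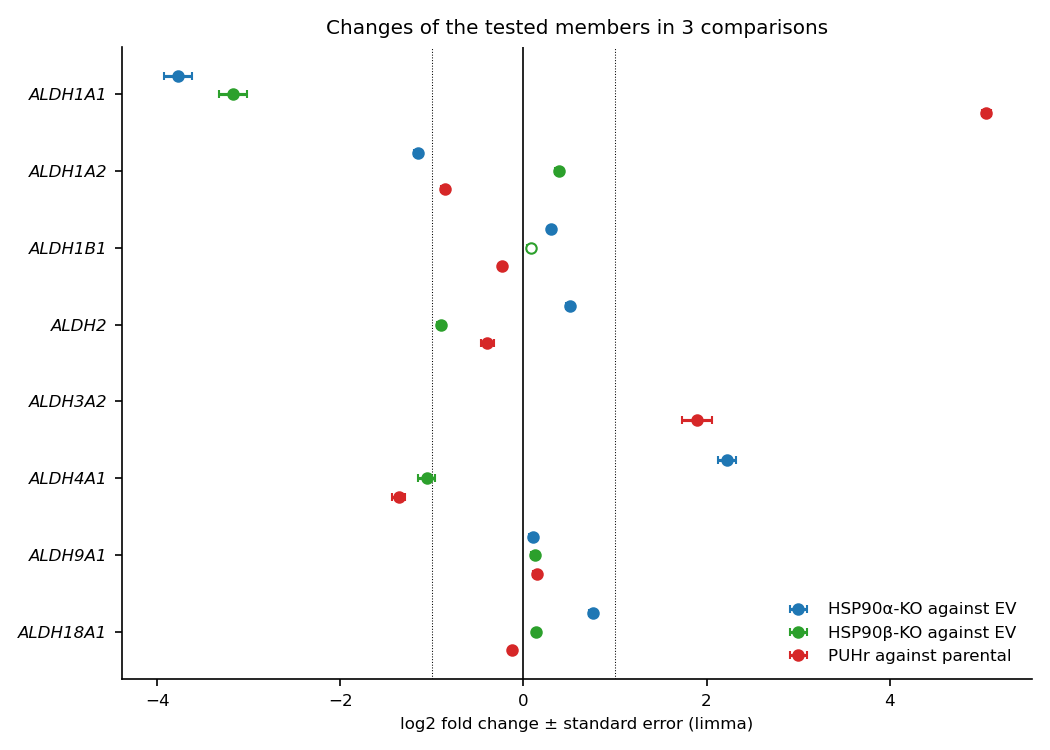
Log2 fold change (horizontal axis) of each tested member (vertical axis) in HSP90α-KO and HSP90β-KO against EV and in PUHr against parental, with bars for the standard error, open points for members that did not pass and dotted lines at -1 and 1. ALDH1A1 lay at -3.78, -3.17 and 5.06 in the 3 comparisons.

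The comparison of HSP90β-KO with EV asks the same of cells that lost HSP90β, and it uses the same EV libraries. ALDH1A1, ALDH4A1 and ALDH2 fell, and ALDH1A2, ALDH18A1 and ALDH9A1 rose. ALDH1A1 was 9.21-fold lower than in EV, and ALDH4A1 was 2.12-fold lower. Of the 7 tested members, 3 passed higher, 3 passed lower and 1 did not pass, and 2 were changed, both lower. Of all 17039 genes, 34.4% passed, 17.2% higher and 17.2% lower, and 4.48% were changed. The median log2 fold change was 0.08 over the members and 0.00 over all tested genes.

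ALDH1A1 stood at 2.67, 1.71 and 1.90 CPM in HSP90β-KO replicates 1 to 3, beside 20.7, 18.1 and 19.0 CPM in EV. All 3 knockout libraries were far below the EV libraries, and 40 to 56 reads per library remained. The log2 fold change was -3.17 (SE 0.154, limma adjusted p = 5.2e-15), at place 58 of 17039 genes by size and at place 16 of the 12342 whose mean log2 CPM was at least 1. With 5 CPM added before the logarithm it was -1.78.

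ALDH4A1, which degrades proline, stood at 3.15, 3.54 and 3.56 CPM in HSP90β-KO, below the 6.18 to 7.90 CPM of EV in every library. Its log2 fold change was -1.06 (SE 0.0949, limma adjusted p = 9.6e-10), close to the threshold of -1. It was -0.99 without EV replicate 2, -0.89 with 1 CPM added and -0.54 with 5 CPM added, and so no longer counted as changed there.

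ALDH2 stood at 33.0, 34.0 and 32.5 CPM in HSP90β-KO, also below every EV library, a log2 fold change of -0.90 (SE 0.0402, limma adjusted p = 8.6e-16). ALDH1A2 stood at 87.8, 88.5 and 82.7 CPM, above every EV library, a log2 fold change of 0.38 (SE 0.0445, limma adjusted p = 9.3e-08). The retinoic acid enzymes ALDH1A1 and ALDH1A2 thus moved in opposite directions in HSP90β-KO.

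ALDH18A1 rose by 0.14 on the log2 scale, to 81.9 ± 3.40 CPM (SD, n = 3), and ALDH9A1 by 0.13, to 61.4 ± 1.10 CPM (SD, n = 3). The call of ALDH9A1 was lost with median centring (limma adjusted p = 0.12) and without HSP90β-KO replicate 2 (adjusted p = 0.076). ALDH1B1 was 57.9 ± 1.21 CPM (SD, n = 3), with a log2 fold change of 0.08 that did not pass (adjusted p = 0.14). ALDH3A2 had 6, 9 and 19 reads in HSP90β-KO replicates 1 to 3 and was not tested.

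Set directly against each other in the same fit, the knockouts differed most in ALDH4A1, ALDH1A2 and ALDH2. ALDH4A1 was 9.93-fold higher in HSP90α-KO than in HSP90β-KO, ALDH2 was 2.66-fold higher and ALDH1A2 was 2.90-fold lower. Of the 7 tested members, 4 passed higher in HSP90α-KO, 2 passed lower and 1 did not pass, and 3 were changed, 2 higher and 1 lower. Of all tested genes, 59.9% passed, 30.1% higher and 29.8% lower, and 12.7% were changed. The median was 0.23 over the members and -0.01 over all genes.

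The log2 fold change between the knockouts was 3.28 for ALDH4A1 (SE 0.0949, limma adjusted p = 1.1e-20), 1.41 for ALDH2 (SE 0.0402, adjusted p = 8.1e-21) and -1.53 for ALDH1A2 (SE 0.0445, adjusted p = 1.1e-20). In each of these genes the 3 libraries of one knockout lay apart from the 3 of the other. ALDH18A1 was higher in HSP90α-KO by 0.61 and ALDH1B1 by 0.23. ALDH1A1, low in both, had a log2 fold change of -0.60 between them (adjusted p = 0.0014), and of -0.16 with 5 CPM added. ALDH9A1 did not differ (log2 fold change -0.02, adjusted p = 0.65).

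The comparison of PUHr with parental asks which transcripts differ in cells that grew resistant to PU-H71. ALDH1A1 and the fatty aldehyde enzyme ALDH3A2 rose, and ALDH4A1 and ALDH1A2 fell most. ALDH1A1 was 33.8-fold higher in PUHr, ALDH3A2 was 3.83-fold higher and ALDH4A1 was 2.59-fold lower. All 8 tested members passed, 3 higher and 5 lower, and 3 were changed, 2 higher and 1 lower. Of the 16503 genes tested in the resistance table, 51.4% passed, 25.6% higher and 25.8% lower, and 10.1% were changed. The median log2 fold change was -0.18 over the members and 0.00 over all tested genes.

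ALDH1A1 stood at 4.95, 4.78 and 5.07 CPM in parental replicates 1 to 3 and at 169, 164 and 168 CPM in PUHr. The lowest PUHr library held 3783 reads on the gene and the highest parental library 117, so the groups were far apart. The level rose from 4.93 ± 0.142 to 167 ± 2.79 CPM (SD, n = 3), which is 5.06 as a log2 fold change (SE 0.0460, limma adjusted p = 1.2e-17). Among all 16503 genes it was the rise in place 15, and by size in either direction ALDH1A1 stood at place 47, or at place 23 of the 12275 genes whose mean log2 CPM was at least 1. The printed promoter windows of ALDH1A1 and ALDH3A2 belong to the only members that rose past the threshold here.

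ALDH3A2 stood at 2.03, 1.85 and 1.36 CPM in parental and at 7.07, 7.32 and 5.65 CPM in PUHr. Replicate 3 was the lowest of both groups, and the groups did not overlap. Its log2 fold change was 1.90 (SE 0.161, limma adjusted p = 1.6e-07), measured on 29 to 48 reads per parental library and 127 to 176 per PUHr library. With 5 CPM added before the logarithm it was 0.79.

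ALDH4A1 stood at 20.1, 21.7 and 19.3 CPM in parental and at 7.95, 8.07 and 7.61 CPM in PUHr, every PUHr library being lower. Its log2 fold change was -1.36 (SE 0.0704, limma adjusted p = 6.4e-10), and -0.98 with 5 CPM added. ALDH18A1 stood at 128, 130.3 and 125 CPM in parental and at 119, 118 and 116 CPM in PUHr, a small but separated fall by 0.12 on the log2 scale (adjusted p = 0.0026).

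ALDH1A2 stood at 75.9, 76.8 and 74.9 CPM in parental and at 40.8, 41.9 and 42.4 CPM in PUHr, a log2 fold change of -0.86 (SE 0.0350, limma adjusted p = 4.6e-11). It moved against ALDH1A1, as it did in HSP90β-KO. ALDH2 stood at 19.0, 21.5 and 20.8 CPM in parental and at 16.3, 15.9 and 14.3 CPM in PUHr, a log2 fold change of -0.39 (SE 0.0687, adjusted p = 2.2e-04). ALDH1B1 fell from 119 ± 1.86 to 101 ± 2.25 CPM (SD, n = 3), by 0.24 on the log2 scale, and ALDH9A1 rose from 59.2 ± 0.877 to 65.4 ± 1.61 CPM (SD, n = 3), by 0.14.

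The other listed members were hardly detected in the resistance table and were not tested. ALDH1A3, on chromosome 15 from 100877714 to 100916626, had 3 reads in each of the 6 libraries. ALDH7A1 (ENSG00000164904), on chromosome 5 from 126531200 to 126595362, had 1 read in parental replicate 2 and 0 in the other 5 libraries. A count of 0 allows a level of up to 0.141 CPM in parental replicate 3, the library with the fewest reads, by counting error alone.

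Of the 7 members tested in both tables, 5 passed in opposite directions in HSP90α-KO and in PUHr, and 3 did so in HSP90β-KO and in PUHr. ALDH1A1 was opposite in both knockouts, lower in each and higher in PUHr. ALDH18A1 was also opposite in both, higher in each knockout (0.76 and 0.14) and lower in PUHr (-0.12). ALDH2, ALDH4A1 and ALDH1B1 rose in HSP90α-KO and fell in PUHr, while in HSP90β-KO the former pair fell as well and ALDH1B1 did not pass. ALDH1A2 rose in HSP90β-KO and fell in both HSP90α-KO and PUHr. Only ALDH9A1 moved the same way in all 3 comparisons, upward by 0.11, 0.13 and 0.14.

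Opposite directions were found across the transcriptome too. Of the 15735 genes tested in both tables, 2991 (19.0%) passed in opposite directions in HSP90α-KO and PUHr, 1568 (9.97%) in HSP90β-KO and PUHr, and 594 (3.78%) in both knockouts against PUHr. The knockouts share the EV libraries, and no test was made between the tables. ALDH1A1 also differed between the controls, at 19.3 CPM in EV and 4.93 CPM in parental, and the part of the separate normalization in that gap was not tested.

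Levels of different genes were compared per length, as CPM per kb of the main annotated transcript. The order depends on that choice of length. The joined length of all annotated exons is 8127 bases against 3386 for ALDH1A2, and 3007 against 2395 for ALDH9A1. In EV the order was ALDH9A1 (23.4 ± 0.312 CPM per kb, SD, n = 3), ALDH18A1 (22.1 ± 0.393), ALDH1A2 (19.5 ± 0.204), ALDH1B1 (18.1 ± 0.515), ALDH1A1 (9.20 ± 0.642), ALDH2 (6.50 ± 0.0934), ALDH4A1 (2.31 ± 0.295) and ALDH3A2 (0.0886 ± 0.0236), with no overlap between neighbours. In HSP90α-KO, ALDH18A1 came first at 37.4 ± 0.348 CPM per kb, ALDH4A1 moved up to place 4 at 10.8 ± 0.577, and ALDH2 and ALDH1A2 overlapped behind it. ALDH1A1 came in place 7 at 0.636 ± 0.111 CPM per kb. In HSP90β-KO the first 3 genes, ALDH9A1, ALDH1A2 and ALDH18A1, overlapped at 25.6 ± 0.458, 25.5 ± 0.934 and 24.4 ± 1.01 CPM per kb, and so did ALDH4A1 and ALDH1A1 in places 6 and 7 at 1.09 ± 0.0746 and 0.998 ± 0.243.

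In parental cells ALDH1B1 and ALDH18A1 led and overlapped, at 39.3 ± 0.613 and 38.1 ± 0.768 CPM per kb, and ALDH1A1 came in place 6 at 2.35 ± 0.0679. In PUHr ALDH1A1 came first at 79.6 ± 1.33 CPM per kb, well above ALDH18A1 at 35.1 ± 0.453, while ALDH3A2 and ALDH2 overlapped in places 7 and 8. The summed level of the members was 101 ± 0.952 CPM per kb in EV, 115 ± 1.62 in HSP90α-KO, 100.4 ± 0.996 in HSP90β-KO, 136 ± 1.21 in parental and 194 ± 2.49 in PUHr. ALDH1A1 made up 9.08% of that sum in EV, 0.555% in HSP90α-KO, 0.993% in HSP90β-KO, 1.73% in parental and 41.1% in PUHr.

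Among the retinoic acid enzymes the balance between ALDH1A1 and ALDH1A2 shifted in every comparison. Per length, ALDH1A1 was 32.0% ± 1.47 of the pair in EV, 6.72% ± 0.883 in HSP90α-KO and 3.76% ± 0.846 in HSP90β-KO (SD, n = 3). It was 9.51% ± 0.353 of the pair in parental and 86.6% ± 0.334 in PUHr. ALDH1A2 was therefore the more abundant of the pair in all libraries except those of PUHr. The summed level of the pair was 28.7 ± 0.726 CPM per kb in EV, 9.43 ± 0.553 in HSP90α-KO, 26.5 ± 1.02 in HSP90β-KO, 24.8 ± 0.207 in parental and 91.9 ± 1.29 in PUHr. With the joined length of all annotated exons in place of the main transcript, the share of ALDH1A1 was 45.5%, 11.3% and 6.47% in EV, HSP90α-KO and HSP90β-KO and 15.7% and 92.0% in parental and PUHr.

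**Figure D3:**
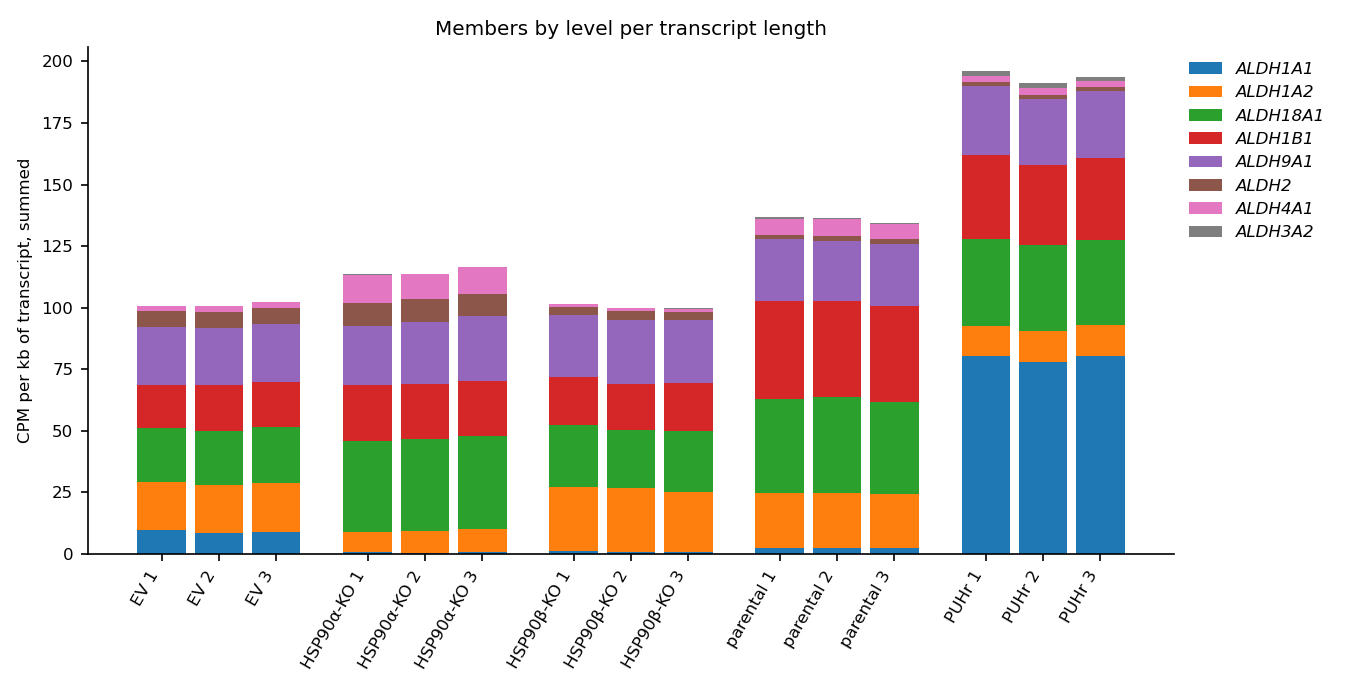
Summed level of the members in CPM per kb of transcript (vertical axis) in each of the 15 libraries (horizontal axis), with 1 colour per gene and bars starting at 0. ALDH1A1 made up 41.1% of the sum in PUHr and at most 9.08% on average in any other group, and the first 9 and last 6 bars come from separately normalized tables.

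The genes most like ALDH1A1 were sought by Euclidean distance over the log2 fold changes in HSP90α-KO, HSP90β-KO and PUHr, among the 12819 genes that were tested in both tables and reached a mean log2 CPM of 1 in at least 1 of them. The 5 nearest were CYP1D1P, ENSG00000235592, LINC01203, SPAG6 and MUC19. For the first 3 of these no knockout library held more than 3 reads, so their fold changes there rest on the prior count, and neither their distances nor an order among them is given. CYP1D1P (ENSG00000228024) is a pseudogene on the plus strand of chromosome 9 from 73042745 to 73056528, located inside the annotated span of ALDH1A1 and on the opposite strand. Reads on CYP1D1P numbered 33 to 42 per EV library, 0 in HSP90α-KO, 1 to 3 in HSP90β-KO, 8 to 24 in parental and 316 to 327 in PUHr. CYP1D1P lies upstream of the RefSeq start of ALDH1A1, whose printed window begins at 72953054, so only longer annotated transcripts of ALDH1A1 overlap it. The library kit was stranded, but the strand setting of the counting is not stated. Reads of the 2 genes within that overlap therefore cannot be told apart.

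The other genes lie on other chromosomes. ENSG00000235592, a pseudogene on chromosome X without a symbol, had 14 to 20 reads in EV, 0 in both knockouts, 7 to 14 in parental and 731 to 855 in PUHr. LINC01203, a long noncoding RNA on chromosome X, had 51 to 71 reads in EV, 0 to 1 in HSP90α-KO, 0 in HSP90β-KO, 41 to 45 in parental and 2544 to 2885 in PUHr. These genes were chosen for moving as ALDH1A1 does, so low reads in the knockouts and high reads in PUHr follow from the choice. ENSG00000235592 reached the mean log2 CPM of 1 through PUHr, where it was high. SPAG6, a gene of the sperm flagellum on chromosome 10, lay at a distance of 3.31 with log2 fold changes of -0.89, -2.98 and 3.46. MUC19, a gel-forming mucin gene on chromosome 12, lay at 3.88, with 20 to 30 reads in EV, 0 to 4 in HSP90α-KO, 6 to 11 in HSP90β-KO, 356 to 408 in parental and 1174 to 1388 in PUHr.

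Genes beside the members on the chromosome were read in the same way. Distances were taken between the lowest coordinates of the genes, whatever their strand. Within 5 Mb of ALDH1A1, 20 tested genes of mean log2 CPM at or above 1 showed a median change of -0.01 on the log2 scale in HSP90α-KO, -0.11 in HSP90β-KO and 0.01 in PUHr. The level was taken in each table separately, so CYP1D1P, whose mean lay under it in the knockout table, was among the 20 only in PUHr. It reached the level there through PUHr, at 316 to 327 reads against 8 to 24 in parental. In the knockout table its reads fell with those of ALDH1A1, from 33 to 42 per EV library to 0 in HSP90α-KO and 1 to 3 in HSP90β-KO. Of the neighbours at that level, 0 were changed in either knockout, a count that leaves CYP1D1P out. In PUHr 2 were changed, CYP1D1P at 4.47 and a gene at -2.66, the latter against the direction of ALDH1A1. Over all genes at that level, 717 of 12342 were changed in HSP90α-KO, 272 of 12342 in HSP90β-KO and 751 of 12275 in PUHr.

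Other members did share the direction of their surroundings in some comparisons. Around ALDH18A1, 64 genes had a median of 0.50 in HSP90α-KO, where ALDH18A1 rose by 0.76, and of 0.03 in HSP90β-KO. Between the knockouts their median was 0.47, beside 0.61 for ALDH18A1, both higher in HSP90α-KO. Around ALDH4A1, 70 genes had a median of -0.46 in PUHr, where ALDH4A1 was at -1.36 with 5 neighbours changed, while 72 genes had medians of 0.05 in HSP90α-KO and -0.03 in HSP90β-KO. The median over all tested genes was -0.01 in HSP90α-KO, -0.01 between the knockouts and 0.00 in PUHr. The 58 neighbours of ALDH3A2 had a median of 0.07 in PUHr, and the 30 of ALDH1A2 one of 0.14 in HSP90α-KO, against its own -1.15. Copy number was not measured in these tables, and its part in the shifts around ALDH18A1 and ALDH4A1 was not tested. The paper ran SNP arrays on PUHr and HSP90β-KO cells, which were not used here.

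**Figure D4:**
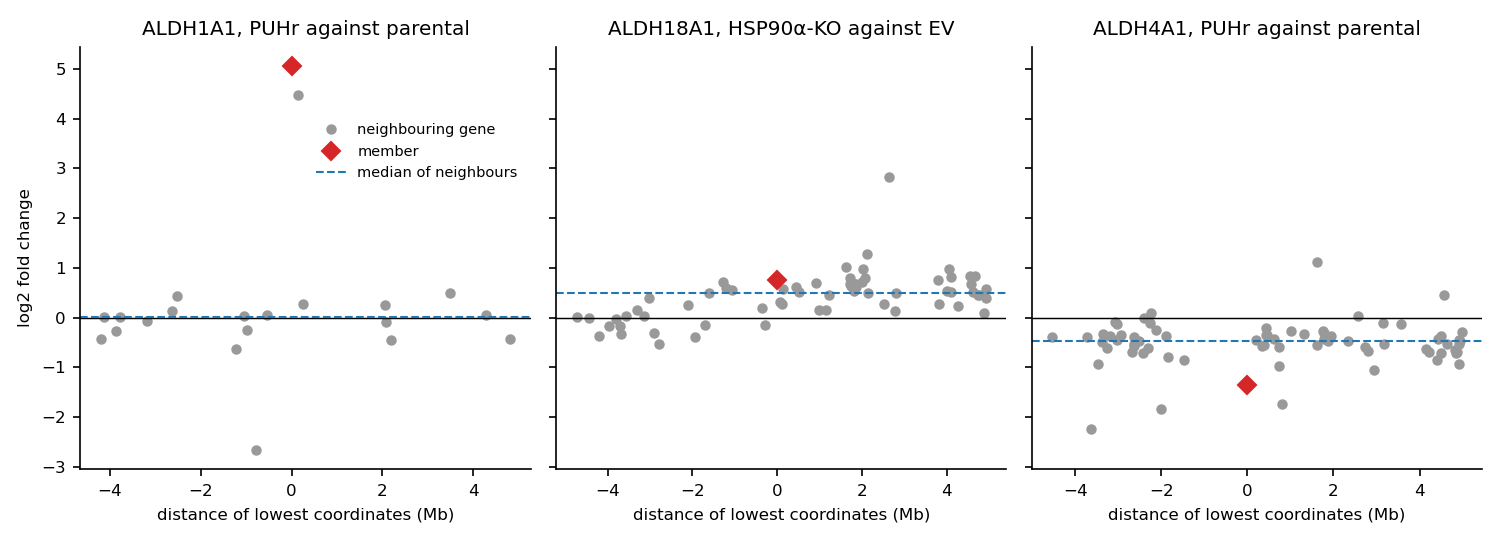
Log2 fold change (vertical axis) of tested genes against the distance of their lowest coordinate from that of ALDH1A1, ALDH18A1 or ALDH4A1 in Mb (horizontal axis), with grey points for neighbours, red diamonds for the member and dashed lines for the median of the neighbours. The medians were 0.01 around ALDH1A1 in PUHr, 0.50 around ALDH18A1 in HSP90α-KO and -0.46 around ALDH4A1 in PUHr.

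Of the 9 ALDH genes outside the list, 6 are listed in the knockout table and 5 were tested, and 0 of the 5 were changed in either knockout, where 10.3% of all tested genes were changed in HSP90α-KO and 4.48% in HSP90β-KO. In HSP90α-KO ALDH6A1, which acts in valine breakdown, rose by 0.37, the mitochondrial folate enzyme ALDH1L2 fell by 0.22, and 3 did not pass, namely ALDH16A1 (0.09), ALDH3B1 (-0.02) and ALDH5A1 (0.07). In HSP90β-KO ALDH16A1 rose by 0.22 and ALDH5A1, the succinic semialdehyde enzyme of GABA breakdown, by 0.21, ALDH1L2 fell by 0.58, and ALDH3B1 (-0.31) and ALDH6A1 (0.01) did not pass. Their medians were 0.07 and 0.01.

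In PUHr 7 of these 9 genes were tested, 0 passed higher and 3 passed lower, with a median of -0.13, beside 25.6% higher and 25.8% lower over all tested genes. ALDH1L2 was changed, falling from 8.50 ± 0.360 to 1.19 ± 0.198 CPM (SD, n = 3), which is -2.77 as a log2 fold change (SE 0.142, limma adjusted p = 5.6e-10). Its cytosolic relative ALDH1L1 was changed as well, with 19 to 23 reads per parental library and 0 to 2 per PUHr library. ALDH1L1 met the filter for testing through its parental libraries, where it was high. ALDH5A1 fell by 0.13, and ALDH3B1 (-0.50), ALDH6A1 (0.07), ALDH8A1 (0.14) and ALDH16A1 (-0.01) did not pass. In the knockout table ALDH1L1 lay under the filter, with 8, 14 and 25 reads in EV replicates 1 to 3, 0 in HSP90α-KO and 0 to 2 in HSP90β-KO. ALDH3A1 had 0 reads in every library of the resistance table, and ALDH3B2 at most 1.

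Genes that make, carry, bind or degrade retinoids were listed as 28 genes. Of 16 tested in HSP90α-KO, 5 passed higher and 5 lower, 3 were changed, and the median was 0.11. Over all tested genes, 27.5% passed higher and 26.6% lower in HSP90α-KO and 10.3% were changed. The shares higher and lower were 17.2% and 17.2% in HSP90β-KO, 30.1% and 29.8% between the knockouts, and 25.6% and 25.8% in PUHr. The share changed was 4.48% in HSP90β-KO and 12.7% between the knockouts. DHRS9, a short-chain dehydrogenase that can oxidise retinol, rose from 0.548 ± 0.120 to 18.3 ± 0.849 CPM (SD, n = 3), by 4.87 on the log2 scale (limma adjusted p = 1.1e-19), and DHRS4, a retinal reductase with close copies beside it whose reads make it uncertain, by 1.36. CYP26A1, which degrades retinoic acid, was changed and lower, with 6 to 11 reads per library in EV and 0, 3 and 0 in HSP90α-KO. In HSP90β-KO 5 of 16 passed higher and 0 lower, with a median of 0.19, and DHRS9 was the only changed gene, rising by 1.77 to 2.06 CPM. Between the knockouts, 4 of 16 passed higher in HSP90α-KO and 5 lower, with a median of -0.04. DHRS9 was higher in HSP90α-KO, with a log2 fold change of 3.10, and the retinoid carrier FABP5 was lower, with one of -1.54. CYP26A1 was lower in HSP90α-KO as well, beside 9, 12 and 19 reads in HSP90β-KO.

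In PUHr 18 retinoid genes were tested, 4 passed higher and 6 lower, 4 were changed, and the median was -0.01. Over all tested genes, 25.6% passed higher and 25.8% lower in PUHr, and 10.1% were changed. DHRS9 and DHRS4 fell, with log2 fold changes of -2.70 and -1.26, the opposite of their direction in HSP90α-KO. STRA6, a receptor for retinol uptake, rose from 0.301 ± 0.100 to 1.39 ± 0.111 CPM (SD, n = 3), by 1.97, and CYP26B1, which degrades retinoic acid, from 0.425 ± 0.187 to 1.11 ± 0.309 CPM (SD, n = 3), by 1.27. All 4 of these genes were measured at low levels, with group means of at most 3.20 CPM. STRA6 met the filter for testing through its PUHr libraries and DHRS9 through its parental libraries, the group where each was high.

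The list of proline and glutamate metabolism, in which ALDH4A1 and ALDH18A1 work, holds 12 further genes, 9 of them tested. In HSP90α-KO 3 passed higher and 2 lower, with a median of 0.07, beside 27.5% higher and 26.6% lower over all tested genes. GLUL, glutamine synthetase, rose from 621 ± 5.98 to 2449 ± 18.6 CPM (SD, n = 3), which is 1.98 as a log2 fold change (limma adjusted p = 5.1e-28). GLUD2, a glutamate dehydrogenase nearly identical to GLUD1 and therefore uncertain, fell by 1.13. In HSP90β-KO 5 passed higher and 3 lower, 0 were changed, and the median was 0.12, beside 17.2% higher, 17.2% lower and 4.48% changed over all genes. Between the knockouts 4 passed higher and 4 lower, with a median of 0.04, beside 30.1% and 29.8% over all genes, with GLUL at 1.84 and GLUD2 at -1.81. In PUHr 2 passed higher and 6 lower, 0 were changed, and the median was -0.13, beside 25.6% higher, 25.8% lower and 10.1% changed over all genes.

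Other enzymes of aldehyde and alcohol metabolism were listed as 22 genes. Of 13 tested in HSP90α-KO, 4 passed higher and 4 lower, with a median of 0.05, where 54.2% of all tested genes passed. AKR1C1, an aldo-keto reductase nearly identical to AKR1C2 and therefore uncertain, rose by 2.00 from 30.6 to 123 CPM, and CYP2E1, which oxidises ethanol, fell by 1.27. In HSP90β-KO 4 passed higher and 4 lower, with a median of 0.06, where 34.4% of all tested genes passed and 4.48% were changed. PTGR1, which reduces unsaturated aldehydes and ketones, was the only changed gene, with 174, 163 and 244 reads in EV replicates 1 to 3 and 0 in every HSP90β-KO library. Between the knockouts 6 passed higher in HSP90α-KO and 6 lower, with a median of -0.08, where 59.9% of all tested genes passed. AKR1C1 stood at 2.38 and CYP2E1 at -1.65, and PTGR1 had 231 to 240 reads per HSP90α-KO library.

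In PUHr 15 of these genes were tested, 2 passed higher and 9 lower, and the median was -0.19, beside 25.6% higher and 25.8% lower over all 16503 genes. PTGR1 was at or near 0 there too, with 106, 128 and 120 reads in parental replicates 1 to 3 and 0, 1 and 0 in PUHr. AKR1C1 fell by 1.21 on the log2 scale, from 57.8 to 25.0 CPM, against its rise in HSP90α-KO. AKR1B1, aldose reductase, rose by 3.12, from 0.162 ± 0.0751 to 2.00 ± 0.183 CPM (SD, n = 3), on 2 to 5 reads per parental library. The log2 values include a prior count, so 3.12 lies below the log2 of the ratio of these levels. AKR1B1 met the filter for testing through its PUHr libraries, where it was high.

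The pathways of ALDH7A1 and ALDH9A1 were followed in 10 genes of lysine, choline and carnitine metabolism. Of 7 tested, 1 passed higher and 2 lower in HSP90α-KO (median -0.19), 2 higher and 1 lower in HSP90β-KO (median 0.03), and 1 higher and 3 lower between the knockouts (median -0.22), where 54.2%, 34.4% and 59.9% of all tested genes passed. AASS, which starts lysine breakdown, fell by 1.43 in HSP90β-KO, from 1.19 to 0.417 CPM. In PUHr all 7 tested genes passed, 3 higher and 4 lower, with a median of -0.16, where 51.4% of all tested genes passed. AASS rose there by 1.08, from 9.77 ± 0.363 to 20.8 ± 1.39 CPM (SD, n = 3), SARDH, which degrades sarcosine, rose by 1.60, and AADAT, the aminotransferase of the lysine pathway, fell by 1.57. ALDH7A1, which acts between AASS and AADAT in that pathway, stayed at 0 to 1 read per library.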

How the data were processed

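RNA from 15 K562 libraries was measured. The authors used RNA STAR for alignment to GRCh38, featureCounts for counting and edgeR for scaling, and both tables hold log2 CPM with a prior count as deposited by the authors. Whole reads were recovered from these values, with a largest deviation of 0.00132 reads. Log2 fold changes were taken on the deposited values, so at low levels they can differ from the log2 of the CPM ratio. Genes reaching a log2 CPM of -1 in 3 or more libraries were tested by limma 3.58.1 in R 4.3.3 (lmFit, contrasts, eBayes with trend), separately for each table and two-sided, with Benjamini-Hochberg adjustment over all tested genes. The fits were tested on simulated data, with changes planted only in genes above 1 CPM, so calls at lower levels were not covered. Only HSP90α-KO against EV and PUHr against parental were scored there. A gene high in only 1 group could meet the filter through that group, and its call then rests on that group. Fold changes are not given for groups with at most 3 reads in every library. Lengths (of MANE Select transcripts) and positions come from GENCODE v44 and promoter sequences from RefSeq GRCh38.p14. Figures were drawn with matplotlib 3.10.9 in Python 3.11.15. Named genes were all members, all other ALDH genes tested, up to 2 changed genes each way per pathway list and comparison, and the 5 genes nearest to ALDH1A1. Genes singled out beyond this rule were chosen after their values were seen. The members and lists were chosen with earlier results of these data known. Alternatives covered the filter, 1 or 5 CPM added, quantile normalization, median centring, no intensity trend, voom on the recovered reads, a replicate block, fits of only the libraries compared and each library left out. Results of 1 marker list are not reported here.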

Additional observations from a re-analysis of the deposited data

How the results depend on the processing

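Over 456 alternative values of 29 member fold changes, 445 kept their direction and their side of the adjusted p threshold, 9 no longer passed and 2 turned. All 9 belonged to ALDH9A1, 7 of them in HSP90α-KO and 2 in HSP90β-KO. Both that turned were the uncalled difference of ALDH9A1 between the knockouts, at 0.020 with median centring (limma adjusted p = 0.71) and 0.0024 without HSP90α-KO replicate 1 (adjusted p = 0.97), in a leave-one-out range of -0.049 to 0.0024. The cause was not tested. Changed members in HSP90β-KO against EV numbered 1 with 1 CPM added and 1 with 5 CPM added in place of 2, as ALDH4A1 missed the fold threshold, and 1 to 2 when single libraries were dropped. In PUHr 1 member was changed with 5 CPM added in place of 3, as ALDH3A2 (0.79) and ALDH4A1 (-0.98) missed it. The constant added shrinks fold changes of genes with low levels, such as ALDH4A1 and ALDH3A2. Without the filter on low values 8 members passed and 4 were changed in HSP90α-KO, ALDH3A2 with 1 to 3 reads per library being the one added, and 7 passed and 4 were changed between the knockouts. When single libraries were dropped, 6 to 7 members passed in HSP90α-KO, 5 to 6 in HSP90β-KO, 6 between the knockouts and 8 in PUHr. With the replicate number as a replicate block, 7, 6, 6 and 8 members passed and 3, 2, 3 and 3 were changed, as without it; libraries with the same number did not deviate together (correlations across genes of -0.048 to 0.045), so the numbers do not pair them. The variance between replicates was 1.15 to 3.86 times that of counting alone. Members with under 50 reads per library, such as ALDH1A1 in HSP90α-KO and ALDH3A2 in parental, are limited by depth.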
